A study of Mus musculus with 3 samples.

Results

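The respiratory chain and the ATP synthase are built from genes of 2 genomes, and both sets were followed here in mouse blood cells. The set holds every gene of the deposited feature list whose symbol starts with mt-, Ndufa, Ndufb, Ndufc, Ndufs, Ndufv, Sdh, Uqcr, Cox4, Cox5, Cox6, Cox7, Cox8 or Atp5, which is 111 of 32285 genes. Of these, 13 are protein-coding genes of the mitochondrial genome and 98 are nuclear genes on 19 chromosomes. The nuclear members belong to complex I (45, of which 8 are Ndufaf assembly factors), complex II (8, of which 4 are Sdhaf assembly factors), complex III (8), complex IV (20) and complex V, the ATP synthase (17). Ndufa4 and its relative Ndufa4l2 are counted in complex IV, where the Ndufa4 protein is known to sit despite its symbol. The rule uses symbols alone.

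The study profiled peripheral blood mononuclear cells of c57bl/6 mice by 10x Genomics 3' single-cell RNA sequencing, in 3 libraries and with 1 library per group. The first group was young mice given PBS for 1 month, the second was aged mice given PBS for 1 month, and the third was aged mice given AA for 1 month. AA is ascorbic acid by the series title. Ages in months, sex and the number of mice per library were not given in the sources used here. A difference between libraries therefore has no replicate check, and no test between groups was possible. Intervals in parentheses are 95% intervals that cover counting error only (reads of 1 molecule were collapsed by its UMI). Values count the 3' ends of messages and were not divided by gene length, so they compare libraries and not genes.

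Values in groups of 3 are always in the order young, aged, aged+AA. RNA molecules were counted by unique molecular identifier (UMI), 64496639, 94944551 and 80424480 in all, and 8707, 9720 and 11082 cells with median depths of 4448, 3601 and 4072 UMIs were kept. Cell barcodes shared between 2 libraries numbered 30 for young and aged, 32 for young and aged+AA, and 35 for aged and aged+AA. T, B, NK and myeloid cells were gated on UMIs of marker genes in each cell: Cd3d, Cd3e and Cd3g for T, genes including Cd79a, Cd79b and Ms4a1 for B, Ncr1, Klrb1c, Klre1 and Klra8 for NK, and 7 genes including Lyz2 and Csf3r for myeloid cells. Of genes outside the gates, Trac and Trbc2 summed to 2312, 2067 and 2170.0 CPM (UMIs per 1e+06 UMIs of the class) in T cells, against 46.4, 29.8 and 64.9 in B cells. The gates held 5457, 2288 and 4584 T cells, 2581, 4469 and 5538 B cells, 321, 258 and 189 NK cells and 76, 2300 and 337 myeloid cells. The young myeloid value rests on 76 cells. Globin genes of red cells, which the gated cells should lack, summed to 27168, 79216 and 28401 CPM in T cells and 44386, 117185 and 36992 in B cells. Myeloid markers summed to 88.1, 376 and 127 CPM in T cells and to 228, 577 and 293 in B cells, and NK markers to 18.8, 87.1 and 59.1 in T cells, with every marker above 0. Of 3 platelet markers, 2 were at 0 in young T cells. In both classes globin and myeloid markers were highest in the aged library. In NK cells globin summed to 43783, 82821 and 85771 CPM, highest in the aged+AA library. The part of the myeloid and NK markers in the results was not tested, and values in cells with little globin are given below.

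Complexes I to IV pass electrons from NADH and succinate to oxygen, and complexes I, III and IV pump protons that drive the ATP synthase. The mitochondrial genome is transcribed as long precursor RNAs that are cut into single messages, whereas each nuclear subunit has its own gene, is translated in the cytosol and is imported. Complex II has no mitochondrially encoded subunit, so the balance between the 2 genomes can be read within complexes I, III, IV and V alone. Resting lymphocytes are known to depend on mitochondrial respiration, and activated ones to raise glycolysis beside it.

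Mitochondrial genes took a smaller part of the RNA in the aged library than in the young one in each of the 4 gated classes, and nuclear members did not follow them down. In T cells the 13 mitochondrial genes made up 5.01% (5.00 to 5.02), 2.85% (2.84 to 2.86) and 4.25% (4.24 to 4.26) of all UMIs. The 98 nuclear members made up 1.56% (1.56 to 1.57), 1.84% (1.83 to 1.85) and 1.69% (1.68 to 1.69). The aged library was lowest of the 3 for the mitochondrial genes and highest for the nuclear members. The balance, meaning mitochondrial UMIs per UMI of the nuclear members, was 3.20 (3.19 to 3.21), 1.55 (1.54 to 1.56) and 2.52 (2.51 to 2.53) in T cells. Aged over young, it was 0.483 (0.480 to 0.486) times, and aged+AA over aged, 1.63 (1.62 to 1.64) times. The 2 ratios share the aged library. The aged+AA library lay between the other two.

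B cells had the same order of libraries for the mitochondrial genes, at 5.62% (5.60 to 5.63), 3.28% (3.27 to 3.29) and 4.66% (4.65 to 4.67) of UMIs. Their nuclear members differed little, at 1.41% (1.403 to 1.42), 1.47% (1.46 to 1.47) and 1.48% (1.47 to 1.48). The balance in B cells was 3.98 (3.96 to 4.01), 2.24 (2.23 to 2.25) and 3.16 (3.15 to 3.17), so that aged over young was 0.562 (0.558 to 0.566) times and aged+AA over aged 1.41 (1.403 to 1.42) times. In NK cells the balance was 1.52 (1.498 to 1.55), 0.962 (0.943 to 0.981) and 1.34 (1.31 to 1.37), and the 2 ratios were 0.631 (0.615 to 0.648) and 1.397 (1.36 to 1.44). In myeloid cells it was 1.81 (1.76 to 1.87), 0.826 (0.822 to 0.830) and 1.37 (1.34 to 1.39), with ratios of 0.455 (0.441 to 0.469) and 1.66 (1.63 to 1.69). B cells had the highest balance of the 4 classes in each library and T cells the next, while NK and myeloid cells changed places between libraries. In NK cells the nuclear members took 2.05%, 2.12% and 1.93% of UMIs, more than in T or B cells of the same library. In the aged library the myeloid class came close to NK cells, at 2.06%.

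Myeloid cells were the class in which the nuclear members differed most, with 1.48% (1.44 to 1.52), 2.06% (2.05 to 2.06) and 1.43% (1.41 to 1.45) of UMIs, the aged library being highest. Those cells were of unequal kinds: by Csf1r, Csf3r, S100a8 and S100a9, monocytes numbered 54, 1103 and 119 and neutrophils 14, 762 and 168. Gene-level values are therefore given for T, B and NK cells. A share of UMIs cannot tell fewer mitochondrial molecules from more of the others, and the cytosolic ribosomal protein genes, the largest set of nuclear messages, also took less in the aged library, at 40.1%, 31.4% and 37.2% of UMIs in T cells and 29.9%, 25.5% and 28.7% in B cells. With mitochondrial and ribosomal protein genes left out of the total, the nuclear members' share in T cells was 0.984 times, aged over young, instead of 1.18 times, and 1.03 instead of 0.916 times, aged+AA over aged. In B cells it was 0.941 instead of 1.04 times, aged over young. The direction for the nuclear members thus turned with the total, while the balance does not use it.

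**Figure D1:**
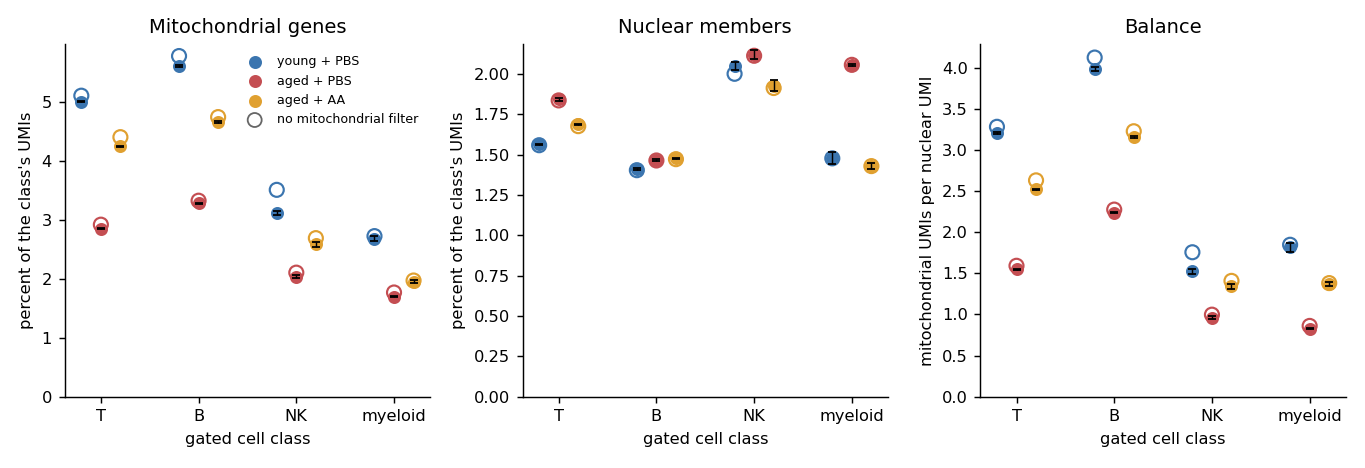
Percent of a class's UMIs in the mitochondrial genes (left) and in the nuclear members (middle), and mitochondrial UMIs per nuclear UMI (right), by gated class and library. Filled points are cells with at most 10% mitochondrial UMIs, bars are 95% counting intervals, and open circles have no mitochondrial filter. The aged library is the lowest of the 3 on the left and on the right in every class, for example 2.24 against 3.98 and 3.16 in B cells.

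Because the cell filter acts on the measured genes, the values were also taken without it. The limit of 10% left out 486, 212 and 533 cells, with median depths of 1041, 868 and 1334 UMIs. Without the limit the balance was 3.28, 1.59 and 2.63 in T cells, 4.12, 2.27 and 3.23 in B cells, 1.76, 0.998 and 1.41 in NK cells and 1.85, 0.861 and 1.38 in myeloid cells. The order of the libraries was the same in all 4 classes. A stricter limit of 5% kept 3840, 9187 and 7648 cells, and so cut the young library most; the ratios then lay closer to 1, at 0.579 in T and 0.727 in B cells for aged over young. In cells with at most 2% globin UMIs, a limit chosen after the data were seen, which were 98.4%, 89.3% and 96.2% of T cells, the balance ratios in T cells were 0.483 and 1.63. Free RNA, taken from barcodes ranked below the cells, had balances of 1.86, 1.39 and 2.53, so the aged library was the lowest there too. From the globin UMIs of the median T cell, free RNA was estimated at 0.920%, 2.27% and 1.68% of its UMIs. The class sums, on which the balances rest, also include the cells with more than 2% globin UMIs, and no estimate was made for the sums. The alternative with free RNA subtracted used the median cell of each class in the same way.

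T cells of the 3 libraries also differed in their makeup: the memory and effector genes Ccl5, Nkg7, S100a4, S100a6 and Lgals1 summed to 1478, 8350.4 and 7082 CPM. In T cells without a UMI of these 5 genes (2834, 399 and 952 cells) the balance was 3.33 (3.32 to 3.35), 1.68 (1.66 to 1.70) and 2.48 (2.46 to 2.50). In CD8 T cells, gated by Cd8a or Cd8b1 without Cd4, it was 3.25 (3.23 to 3.27), 1.58 (1.57 to 1.59) and 2.61 (2.60 to 2.62), and in CD4 T cells 3.15 (3.12 to 3.17), 1.5 (1.48 to 1.52) and 2.28 (2.26 to 2.30). The aged library was again the lowest and the aged+AA library between in each of these 3 subsets. In B cells the plasma-cell genes Jchain, Mzb1 and Xbp1 summed to 362, 882 and 1075 CPM, lowest in the young library. No subset of B cells without these genes was taken, so the part of makeup there was not tested.

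Single cells showed the same order. Each cell was thinned to 1000 UMIs, which left out 6, 6 and 17 T cells and 7, 25 and 45 B cells with fewer. The median T cell had 76.5%, 61.1% and 71.9% of its respiratory UMIs from mitochondrial genes, against 76.4%, 60.9% and 71.2% before thinning. The lower quartile of young T cells lay at 71.4%, and 83.6% of aged and 47.5% of aged+AA T cells lay below it. In B cells the medians were 80.2%, 69.2% and 76.4%, with 76.5% and 45.2% of cells under the young lower quartile. The distributions overlapped in both classes, and cells of 1 library are not replicates.

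Of the 4 complexes with genes of both genomes, the ATP synthase had the balance ratios furthest from 1 in T cells, in both comparisons. UMIs of mt-Atp6 and mt-Atp8 per UMI of the 17 nuclear members of complex V were 2.58, 1.03 and 2.09, a ratio of 0.400 (0.395 to 0.405), aged over young, and of 2.03 (2.00 to 2.05) with AA over without it. Complex III, with mt-Cytb as its one mitochondrial gene, stood at 3.16, 1.399 and 2.40, ratios of 0.442 (0.433 to 0.451) and 1.72 (1.68 to 1.75). Complex I, with 7 mitochondrial genes against 37 nuclear subunits, stood at 2.21, 1.10 and 1.57, ratios of 0.499 (0.492 to 0.505) and 1.42 (1.404 to 1.44). Complex IV, with mt-Co1, mt-Co2 and mt-Co3 against 20 nuclear members, stood at 5.40, 2.89 and 4.43, ratios of 0.536 (0.530 to 0.542) and 1.53 (1.52 to 1.55). The aged-over-young ratio in B cells was likewise lowest in complex V, at 0.493 (0.486 to 0.4999), and highest in complex IV, at 0.610 (0.602 to 0.618). In NK cells complex V was at 0.557 (0.530 to 0.586) and complex IV at 0.710 (0.680 to 0.742), whereas in myeloid cells complex I was lowest, at 0.344 (0.323 to 0.366).

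Each mitochondrial gene was compared with the median gene of its class, since the median log2 ratio over all genes tested in T cells was itself 0.32 between the young and the aged library and -0.12 between the aged and the aged+AA library, and 0.17 and -0.02 in B cells. Genes with at least 100 UMIs over the 3 libraries were tested in this way, and a gene past 1.5-fold from the median gene was counted. In T cells all 13 mitochondrial genes were at least 1.5-fold lower in the aged than in the young library and none was higher, with a median relative log2 ratio of -1.09. Of all 10261 genes tested, 11.1% were that much lower and 13.3% higher. Aged+AA over aged, 6 of the 13 were higher and 1 was lower (median 0.48), against 5.06% and 5.77% of all genes. Without centring on the median gene, aged over young, 8 mitochondrial genes were past 1.5-fold lower, and of the nuclear members 5 were higher and 1 lower. The share of all genes was not taken without centring, so these counts cannot be read against it.

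mt-Atp6, which forms the proton channel of the ATP synthase, gave 12493, 5826 and 11162 CPM in T cells. The aged value was 0.466 (0.463 to 0.470) times the young one and the aged+AA value 1.92 (1.90 to 1.93) times the aged one. mt-Nd2, a subunit of the proton-pumping arm of complex I, gave 2274, 963 and 1828 CPM and had the lowest relative log2 ratio of the set, -1.56. mt-Co3 gave 6759, 3308 and 5558 CPM and mt-Cytb, the cytochrome b of complex III, 5134, 2551 and 4091. For these 4 genes the aged library was lowest and the aged+AA library came second.

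mt-Co1, which carries the oxygen-reducing site of complex IV, was among those that differed least, with 7814, 6169 and 7127 CPM and 0.790 (0.783 to 0.796) times for aged over young. mt-Co2, which takes electrons from cytochrome c, gave 7767, 4543 and 6912 CPM. Of the other complex I genes, mt-Nd1 gave 1600, 1161 and 1490.3 CPM, mt-Nd4 2772, 1976 and 2306, mt-Nd3 757, 446 and 642 and mt-Nd5 984, 549 and 630.2. In these the order of libraries was that of mt-Atp6. mt-Nd6, the one gene of the set encoded on the light strand, gave few UMIs (1679, 570 and 1054), which is 56.9, 46.8 and 38.8 CPM.

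A different order held for mt-Atp8 and mt-Nd4l, where the aged+AA library was the lowest. mt-Atp8, the small partner of mt-Atp6 in the ATP synthase, gave 399.7, 277 and 166 CPM in T cells, with the aged value at 0.692 (0.666 to 0.719) times the young one and the aged+AA value at 0.601 (0.574 to 0.628) times the aged one. mt-Nd4l, a small complex I subunit, gave 1264, 686 and 535 CPM, with 0.543 (0.530 to 0.556) and 0.779 (0.758 to 0.8004) times. In B cells mt-Atp8 gave 451, 326 and 181 CPM and mt-Nd4l 1351, 768 and 557. mt-Nd6 had this order too, at 59.6, 46.1 and 42.0 CPM in B cells. Its aged and aged+AA values there lie close together and rest on 818 and 970 UMIs.

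**Figure D2:**
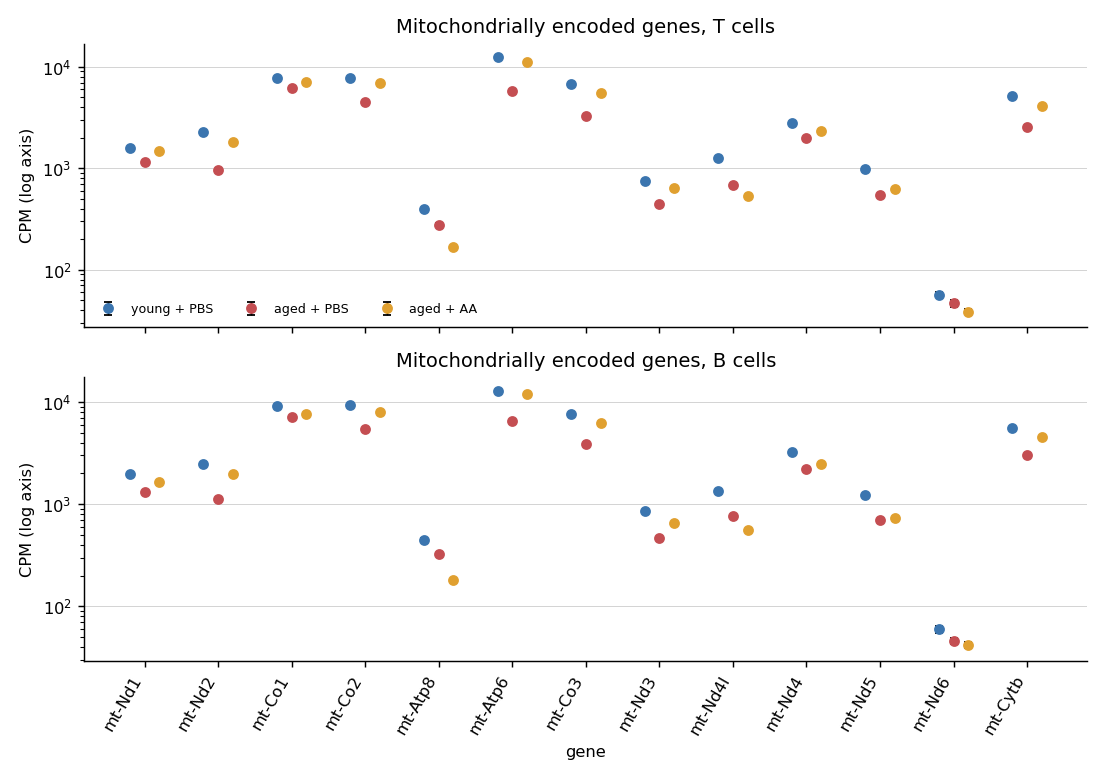
CPM of each of the 13 mitochondrial genes (log axis) in T cells (top) and B cells (bottom) by library, with 95% counting intervals, most of them smaller than the points. The young library is the highest for every gene in both classes, and the aged+AA library is the lowest for mt-Atp8, mt-Nd4l and mt-Nd6. For mt-Nd6 in B cells the aged and aged+AA values lie close together.

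B cells, which come from the same 3 libraries, largely repeated the pattern of T cells. There 11 of the 13 genes were at least 1.5-fold lower than the median gene in the aged library and none was higher (median -0.97), against 8.65% lower and 9.73% higher of all 9962 genes tested. The other two, mt-Co1 and mt-Nd6, had relative log2 ratios of -0.55 and -0.54. Aged+AA over aged, mt-Atp6 (0.90), mt-Nd2 (0.82), mt-Co3 (0.71) and mt-Cytb (0.62) were past 1.5-fold higher and mt-Atp8 (-0.83) lower, against 4.03% and 4.34% of all genes. In NK cells 8 of 12 tested genes were lower and none higher, aged over young, against 6.4% and 8.35% of 3580 genes. With AA over without it, 2 were higher and 1 lower, against 4.66% and 6.37%. mt-Co1 was near the median gene in NK cells, at -0.09 for aged over young, with 4512, 4257 and 4169.6 CPM.

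The mix of mitochondrial messages thus differed between libraries, in the same direction in each of the 4 classes for the mt-Co1 to mt-Atp6 ratio. mt-Co1 took 15.6%, 21.6% and 16.8% of the mitochondrial UMIs of T cells and 16.4%, 21.5% and 16.4% in B cells, highest in the aged library. mt-Atp6 took 24.9%, 20.4% and 26.3% in T cells and 23.0%, 19.6% and 25.5% in B cells, lowest in the aged library. Per 100 UMIs of mt-Atp6 there were 62.5 (62.2 to 62.9), 106 (105 to 107) and 63.8 (63.5 to 64.2) UMIs of mt-Co1 in T cells, 71.2, 109.6 and 64.5 in B cells, 63.2, 106 and 64.3 in NK cells and 89.1, 138 and 87.5 in myeloid cells. The aged library was also the highest in free RNA, at 53.4, 91.4 and 43.5, where the aged+AA library was the lowest. This ratio is taken within a library and does not depend on its total.

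The pairs mt-Atp8 with mt-Atp6 and mt-Nd4l with mt-Nd4 are each known to be carried on 1 shared message with overlapping reading frames. In GRCm38, by the GENCODE M21 annotation, mt-Atp8 lies at chrM:7766-7969 and mt-Atp6 at chrM:7927-8607, both on the plus strand and each a single coding exon, sharing 43 bases. mt-Nd4l lies at chrM:9877-10173 and mt-Nd4 at chrM:10167-11544, sharing 7 bases. The 2 junctions are printed with 20 bases on each side, chrM:7907-7989 and chrM:10147-10193, plus strand, the shared bases in capitals, because a read placed there fits both genes.
mt-Atp8/mt-Atp6: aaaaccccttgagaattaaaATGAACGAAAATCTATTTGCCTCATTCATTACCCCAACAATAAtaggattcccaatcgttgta
mt-Nd4l/mt-Nd4: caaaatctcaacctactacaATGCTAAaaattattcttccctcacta
Counts of these pairs are therefore uncertain as to which gene a UMI belongs to. mt-Atp8 counted 3.20 (3.14 to 3.26), 4.75 (4.58 to 4.91) and 1.49 (1.44 to 1.53) UMIs per 100 of mt-Atp6 in T cells and 3.48 (3.38 to 3.58), 5.07 (4.93 to 5.20) and 1.53 (1.48 to 1.57) in B cells, and mt-Nd4l 45.6 (45.0 to 46.2), 34.7 (33.9 to 35.6) and 23.2 (22.8 to 23.6) per 100 of mt-Nd4 in T cells. For mt-Atp8 the aged library was the highest and the aged+AA library the lowest in all 4 classes and in free RNA (1.17, 2.18 and 0.488), although the young and aged intervals met in myeloid cells. For mt-Nd4l the aged+AA library was the lowest in all 4 classes and in free RNA (17.9, 17.3 and 11.4). The young and aged libraries differed beyond counting error in T, B and NK cells for this pair, while their intervals met in myeloid cells and in free RNA.

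**Figure D3:**
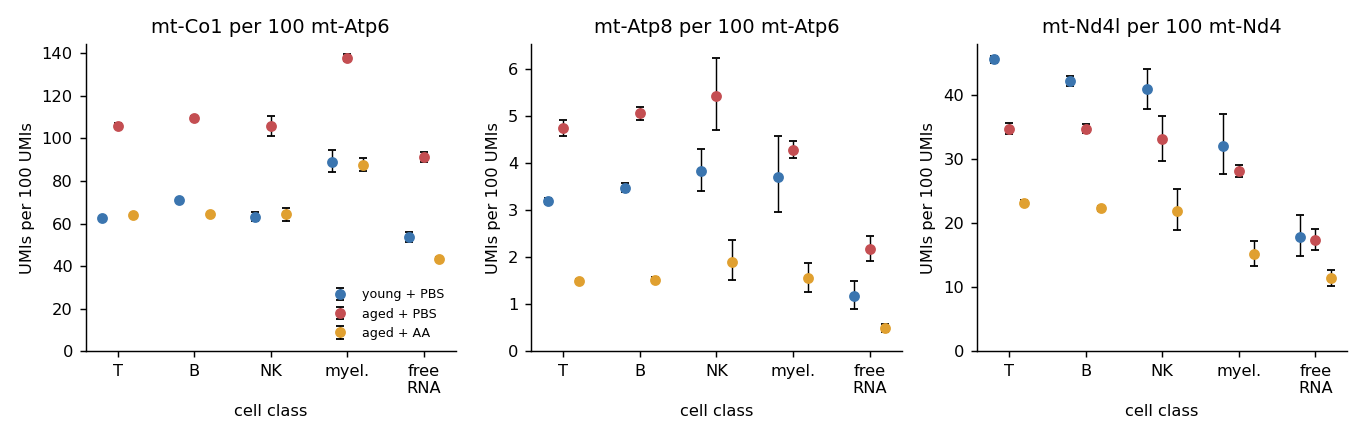
UMIs of mt-Co1 per 100 of mt-Atp6 (left), mt-Atp8 per 100 of mt-Atp6 (middle) and mt-Nd4l per 100 of mt-Nd4 (right), by cell class, with free RNA at the right end, and by library; bars are 95% counting intervals. The aged library stands above the others on the left in every class, and the aged+AA library is the lowest in the middle and on the right.

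The nuclear members stayed near the median gene. In kept cells, 92 of the 98 had at least 100 UMIs, 4 had fewer and 2, Cox7b2 and Ndufa4l2, had none. Within T cells 90 were tested: none was 1.5-fold higher in the aged library and 4 were that much lower, against 13.3% and 11.1% of all genes. Their median relative log2 ratio was -0.04, with 40 above and 50 below the median gene. In B cells the highest were Uqcrq, Ndufb2 and Ndufs1, at 0.22, 0.22 and 0.22, 1 of 90 was lower and none higher (median -0.08), and in NK cells none of 80 was past the fold either way (median 0.05). Aged+AA over aged, no nuclear member was past 1.5-fold in T or B cells (medians -0.01 and 0.03), and 1, Sdhaf4, a complex II assembly factor, was lower in NK cells (-0.71). The shares of all genes past the fold are those given for each comparison above, and no count of nuclear members stood above them. Genes near the minimum of 100 UMIs scatter more by counting than most nuclear members, and the share among genes of like UMI counts was not taken. The 90 tested passed a minimum on the sum over the libraries and are not all members.

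The 4 genes past the fold in T cells were Cox7a2l, Sdhaf1, Ndufa6 and Cox4i1. Cox7a2l (ENSMUSG00000024248, chr17:83501918-83517330, minus strand, GRCm38) encodes a factor that joins complexes III and IV into supercomplexes, and c57bl/6 mice are known to carry a shortened form of the protein. It gave 532, 264 and 342 CPM, so the aged value was 0.496 (0.477 to 0.515) times the young one and the aged+AA value 1.30 (1.248 to 1.35) times the aged one. In B cells it gave 369, 216 and 275 CPM, with a relative log2 ratio of -0.94, the one nuclear member past the fold there. In NK cells it gave 236, 169.9 and 183 CPM (-0.48). The aged library was the lowest of the 3 in each of these classes.

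Cox4i1 (ENSMUSG00000031818, chr8:120668222-120674207, plus strand), the common isoform of a core nuclear subunit of complex IV, gave 541, 423 and 503 CPM in T cells and 457, 352 and 462 in B cells, with relative log2 ratios of -0.67 and -0.55 for aged over young. Ndufa6 (ENSMUSG00000022450, chr15:82350140-82354322, minus strand), an accessory subunit of complex I, gave 275, 213 and 243 and 242, 193 and 218 CPM (-0.69 and -0.50). For both genes the aged library was lowest in T and B cells. Sdhaf1 (ENSMUSG00000074211, chr7:30321406-30323895, minus strand) helps to place the iron-sulphur clusters of complex II. It gave 74.9, 57.8 and 73.6 CPM in T cells, with the aged library lowest, and 83.9, 81.5 and 102 in B cells, where the aged value was 0.972 (0.893 to 1.06) times the young one, within counting error of 1.

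Complex by complex, 18 of 37 tested complex I subunits lay above the median gene in T cells, aged over young (median -0.05). Ndufs7, an iron-sulphur subunit next to the quinone site, was highest with 69.0, 111 and 94.3 CPM (0.37). Ndufv1, which binds NADH, gave 38.0, 35.0 and 41.4 CPM (-0.43). Ndufa13, an accessory subunit, gave 254, 336 and 299.8 CPM, and the subunit listed as Ndufb1-ps 199.7, 287 and 197. Core and accessory subunits thus lay on both sides of the median gene. Ndufv1, Uqcrc2, Uqcrfs1, Atp5b, Atp5a1 and Atp5o were picked as examples after their values were seen. The 4 subunits of complex II were all below the median gene (median -0.13), and all 4 above it for aged+AA over aged (median 0.17). Of these, Sdha, which oxidises succinate, gave 59.6, 71.4 and 72.8 CPM, and Sdhb, its iron-sulphur partner, 89.6, 98.1 and 103.

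In complex III, 3 of 8 members lay above the median gene in T cells. Uqcr11, a small subunit, had the highest relative log2 ratio of all nuclear members tested, 0.48, with 95.7, 166 and 128 CPM. Uqcrq, another small subunit, gave 159, 243 and 199 CPM (0.30). Uqcrc2, a core protein, gave 85.4, 74.3 and 98.3 CPM (-0.52) and Uqcrfs1, the Rieske iron-sulphur protein, 150.2, 138 and 150.2 (-0.44). Uqcrh, the hinge protein, gave 719.9, 676 and 660.1 CPM (-0.41) and Uqcr10, a small subunit, 204, 248 and 219 (-0.04). Between aged+AA and aged, Uqcrc2 and Uqcr11 stood at 0.52 and -0.26, a comparison that shares the aged library with the first.

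In complex IV, 7 of 12 tested members lay above the median gene (median 0.09). Cox6b1, which caps the complex towards the intermembrane space, gave 251, 387 and 307 CPM (0.30). Cox8a gave 546, 772 and 660.0 CPM (0.18) and Cox7c 439.6, 613 and 517 (0.16). In these 3 genes the aged library was the highest in T cells before centring, the reverse of Cox4i1 and Cox7a2l. In complex V, 7 of 17 lay above. Atp5b and Atp5a1, which form the catalytic head, gave 310.5, 266 and 328 and 263, 247 and 253 CPM (-0.54 and -0.41). Atp5o, at the junction of head and stator, gave 149.9, 129 and 145 CPM (-0.53). Atp5e, the epsilon subunit of the central stalk, gave 588, 798 and 656 CPM (0.12), Atp5l 461, 574 and 488, at the median gene, and Atp5h, of the stator, 512, 675 and 582 (0.08). Atp5md, which supports dimers of the synthase, had the lowest aged+AA over aged value of the nuclear members in T and B cells, -0.49 and -0.39, with 181, 250.1 and 164 CPM in T cells.

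**Figure D4:**
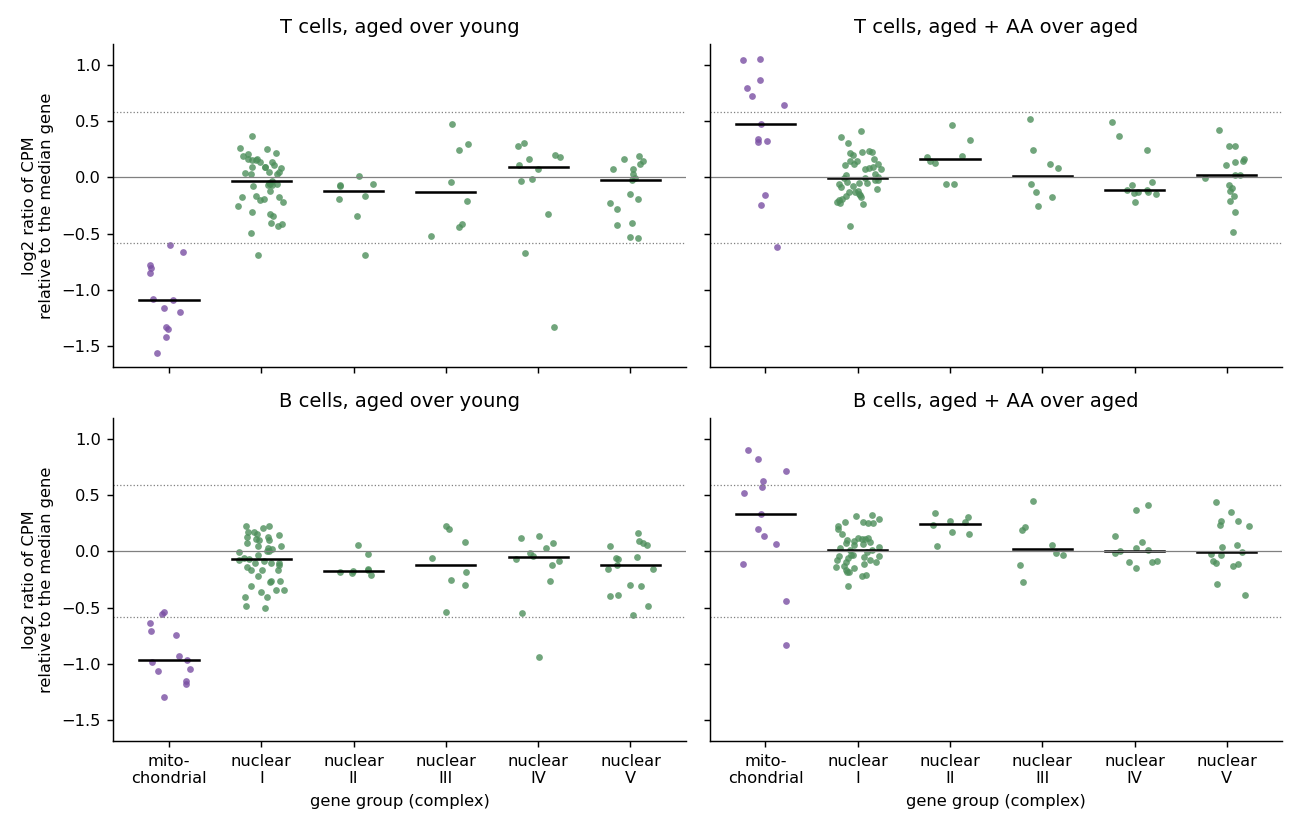
log2 ratio of CPM relative to the median gene for each tested member, in T cells (top) and B cells (bottom), aged over young (left) and aged+AA over aged (right); the 2 comparisons share the aged library. Points are genes, assembly factors included, black lines are group medians and dotted lines mark 1.5-fold. The mitochondrial genes lie below nearly all nuclear members on the left, where the lowest nuclear point, in complex IV, is Cox7a2l.

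Among the nuclear members, the genes below the median gene tended to have longer annotated transcripts. Spliced length was that of the middle one of a gene's protein-coding transcripts in GENCODE M21, ordered by length. Where their number was even, the longer of the middle pair was taken. The message expressed here was not determined, so its length may differ and a gene may be misplaced by a split on length. Across 89 tested members in T cells, Spearman's rho between length and the relative log2 ratio was -0.42 for aged over young. Across all 9631 nuclear genes tested it was 0.19, of the other sign. In B cells the values were -0.45 over 89 members and 0.29 over 9382 genes, and in NK cells -0.38 over 79 and 0.18 over 3509. With members split at 1000 bases, a limit chosen after the values were seen, 33 of 59 shorter and 6 of 30 longer ones lay above the median gene in T cells (medians 0.03 and -0.24).

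Aged+AA over aged, the correlation with length was 0.56 in T and 0.59 in B cells over the same members, and -0.26 and -0.29 over all genes. That comparison has the aged library in common with the first. These are descriptions across genes, which are not replicates and share libraries and depth. Correlations with GC content lay near 0, at 0.06 and -0.04 in T cells. Of the genes past the fold, Sdhaf1 has a spliced length of 2490 bases and Cox7a2l of 1129, but Cox4i1 of 745 and Ndufa6 of 382, so both sides of 1000 bases are among the 4.

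**Figure D5:**
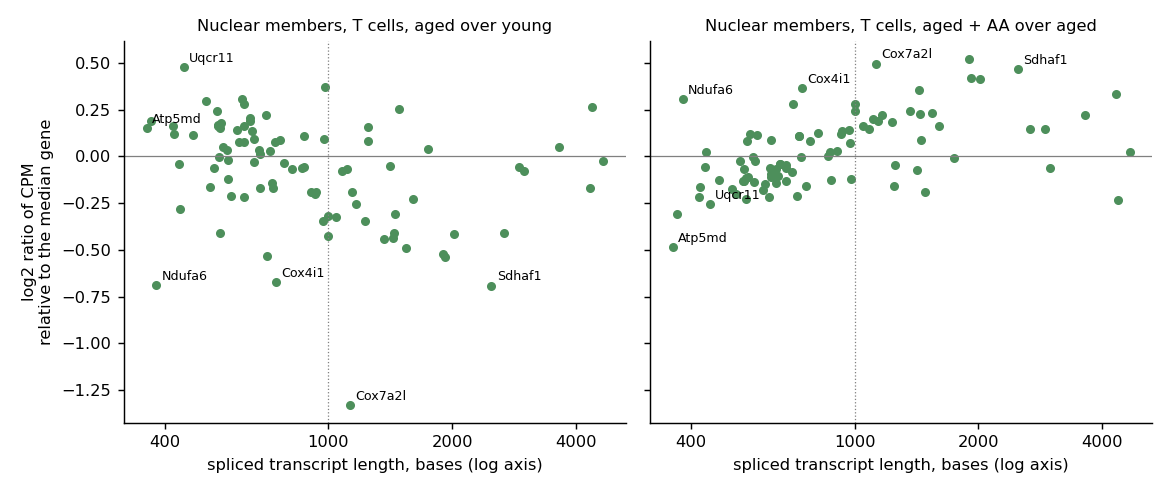
log2 ratio of CPM relative to the median gene in T cells against spliced length of annotated transcripts in bases (log axis). The left panel is aged over young and the right panel aged+AA over aged, which share the aged library. Each point is 1 of 89 nuclear members and the dotted line marks 1000 bases. Right of it on the left panel, 6 of 30 points lie above 0, and on the right panel 23.

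Where a subunit has alternative genes, 1 gene gave nearly all UMIs in most families. Cox4i1 gave 99.99%, 100% and 99.99% of the Cox4 UMIs of T cells, and Cox4i2 counted 1, 0 and 1 UMI. Cox6a1 gave 99.8%, 99.7% and 99.9% against Cox6a2, the isoform of heart and skeletal muscle, and Cox6b1 99.5%, 99.7% and 99.5% against Cox6b2, an isoform known from testis. Ndufa4l2, a relative of Ndufa4 known to be induced by low oxygen, had no UMI in T cells, which allows it up to 0.0279%, 0.0500% and 0.0265% of the pair's UMIs at 3 counts. The c-ring of the ATP synthase is encoded by 3 genes whose mature proteins are the same. Atp5g2 gave 57.0%, 54.5% and 58.0% of their UMIs in T cells and 61.7%, 60.6% and 62.6% in B cells, while Atp5g1 gave 21.2%, 22.0% and 22.0% and Atp5g3 21.8%, 23.5% and 20.02% in T cells. The family mix that differed most was Cox7a: Cox7a2l took 66.9%, 45.0% and 54.2% of its UMIs in T cells and 59.3%, 44.7% and 50.6% in B cells, with Cox7a2 giving almost all the rest. Cox7a2 itself gave 263, 322 and 289 CPM in T cells (-0.03 for aged over young). UMIs from near-identical copies cannot be placed for certain, and pseudogene copies exist for several of these genes.

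The medians of other lists of nuclear genes for mitochondria were close to the median gene too. In T cells, aged over young, where 13.3% of all genes were past the fold higher and 11.1% lower, 0 higher and 3 lower of 78 mitochondrial ribosomal protein genes were past 1.5-fold (median -0.10), 0 higher and 2 lower of 24 import genes (median -0.05), and 1 higher and 6 lower of 36 assembly factors outside the set (median -0.10). Of these 3 lists, the assembly factors alone had a larger share past the fold lower than all genes did. Of the genes for mitochondrial transcription and the upkeep of its RNA and DNA, the counts were 0 higher and 2 lower of 26 (median -0.18). Tfam, which packs mitochondrial DNA and starts its transcription, gave 34.6, 36.5 and 40.2 CPM in T cells and 67.7, 59.3 and 74.0 in B cells (-0.24 and -0.36). Tomm20, an import receptor, was past the fold in both, with 357, 268 and 299 CPM in T cells (-0.73) and 262, 191 and 228 in B cells (-0.62), the aged library being lowest. Cox17, which carries copper to complex IV, gave 129, 227 and 169 CPM in T cells (0.50) with the aged library highest.

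Upstream regulators such as Nrf1, Yy1 and Ppargc1b had a median of 0.15 in T and 0.09 in B cells, with 0 higher and 0 lower of 10 and 1 higher and 1 lower of 10 past the fold. Of all genes, aged over young, 13.3% were past the fold higher and 11.1% lower in T cells, and 9.73% and 8.65% in B cells. The regulators' counts in B cells lay near those shares. The cytosolic ribosomal protein genes did differ, with 0 higher and 51 lower of 83 in T cells (median -0.67) and 0 higher and 23 lower of 83 in B cells (median -0.41). Between aged+AA and aged, their counts were 11 higher and 0 lower of 83 in T and 5 higher and 0 lower of 83 in B cells. Of all genes, 5.06% were higher and 5.77% lower in T cells, and 4.03% and 4.34% in B cells. The count of higher genes in B cells thus lay near the share of all genes. In T and B cells the list's median thus lay on the same side of the median gene as that of the mitochondrial genes in both comparisons, which share the aged library. In NK cells it did not part from the median gene in this way, at -0.01 and -0.03 in the 2 comparisons, against -0.72 and 0.23 for the mitochondrial genes. Rps27, one of its most abundant genes, gave 10752, 8608 and 8224 CPM in T cells (-0.64 for aged over young).

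Promoter windows of the nuclear members are described next, and no link between them and the ratios was tested. NRF1, ETS factors such as GABP, and YY1 are the textbook activators of this gene group. Promoter windows from RefSeq (GRCm38.p6), from 250 bases before to 50 after a start site, matched 81 of the 98 nuclear members, 79 by symbol and 2 by synonym or gene ID. Both strands were searched for GCGCATGCG (NRF1), CCGGAAG (ETS) and AAGATGGCG (YY1), which do not contain one another. The NRF1 letters were found in 10 of 81 members (12.3%) and 1.95% of all 27025 genes, the ETS letters in 22 of 81 members (27.2%) and 9.93% of all 27025 genes and the YY1 letters in 8 of 81 members (9.88%) and 1.64% of all 27025 genes. At least 1 of the 3 was found in 34 members (42.0%) and in 12.7% of all genes. The genes compared were all those with a window, expressed here or not. A match is a description of letters, and no binding was measured. Examples are up to 2 members per motif, those with most UMIs among members with the letters before the start site. They are printed 5' to 3' along the gene's own strand. Only the first match of the motif named for a stretch, or its reverse complement, is in capitals. The Atp5l and Atp5j stretches also hold the ETS letters, in lower case. The Atp5l stretch (NRF1) is chr9:44920945-44920992, minus strand. The Atp5g2 stretch (NRF1) is chr15:102671051-102671119, minus strand. The Atp5e stretch (ETS) is chr2:174464167-174464233, minus strand. The Uqcrh stretch (ETS) is chr4:116075071-116075110, minus strand. The Atp5j stretch (YY1) is chr16:84835026-84835094, minus strand.
Atp5l: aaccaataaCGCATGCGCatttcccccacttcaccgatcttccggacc
Atp5g2: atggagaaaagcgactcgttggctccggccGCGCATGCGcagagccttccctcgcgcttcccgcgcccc
Atp5e: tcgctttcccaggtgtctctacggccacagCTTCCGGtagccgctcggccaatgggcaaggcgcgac
Uqcrh: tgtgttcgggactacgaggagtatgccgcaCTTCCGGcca
Atp5j: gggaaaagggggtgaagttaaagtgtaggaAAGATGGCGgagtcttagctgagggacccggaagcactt
Atp5e and Uqcrh, both with the ETS letters, had relative log2 ratios of 0.12 and -0.41 for aged over young in T cells. Atp5j, a stator subunit with both the YY1 and the ETS letters, had 0.08.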

How the data were processed

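Raw UMI counts per gene and barcode were deposited for all barcodes, by Cell Ranger 4 as the file headers state, and on build mm10 per the submitters' processing notes, which also list Seurat 3.1.0 with no role; the aligner settings are not given in the sources used here. Cells were called against free RNA (barcodes ranked 45001 to 90000; false discovery rate 0.01), with at least 500 UMIs and 250 genes and at most 10% mitochondrial UMIs, and predicted doublets (Scrublet in scanpy 1.11.5) were removed. Counts were summed per library and gate. CPM ratios added 0.5 UMI, were centred on the median gene of at least 100 UMIs over the 3 libraries, and were read at 1.5-fold. With 1 library per group no test was run. Intervals were exact binomial, Poisson or conditional binomial, except those of the balance ratios, which were log-normal from 4 counts where an exact conditional interval had been planned. Ratios and their intervals were checked on counts simulated from the summed T cells, with known folds set in some genes. That simulation held counting error alone, with no other variation between libraries, and the calls past the fold were not checked. Tools were Python 3.11.15, numpy 2.4.6, scipy 1.17.1 and pandas 2.3.3.

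The members and lists were chosen with earlier results of these data known. Named genes were all mitochondrial genes, the 3 nuclear members with most UMIs per complex, the 3 highest and 3 lowest ratios per comparison in T and in B cells, paralog families and the 2 most abundant genes of each other list; genes named beyond this rule were chosen after their values were seen. Splits by annotated transcript length and by globin were added after seeing the data. The GENCODE M21 annotation and RefSeq promoters (GRCm38.p6) were used. Some items are not reported here. Alternatives are in the closing section.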

Additional observations from a re-analysis of the deposited data

Results flagged for a closer look

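The share of the nuclear members, aged+AA over aged, lay on different sides of 1 in the classes, at 0.916 in T, 1.01 in B, 0.910 in NK and 0.695 in myeloid cells. The difference between classes was not tested, and the T value turned with the total used, the B value with stricter gates and with little globin. Atp5h, a stator subunit of the ATP synthase, had relative log2 ratios for aged over young of 0.078 in T cells and -0.061 in B cells, on both sides of the median gene, with the difference not tested.

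Free RNA, taken from barcodes outside the cells compared, carried mitochondrial and nuclear messages at balances of 1.86 (young), 1.39 (aged) and 2.53 (aged+AA). The cells left out for more than 10% mitochondrial UMIs had balances of 18.5, 19.3 and 16.7. They were selected by their mitochondrial UMIs, which enter the balance. Their order therefore cannot be read against that of the kept cells.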

How the results depend on the processing

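Depth and 1 library per group limit these values, and intervals cover counting error only. In every alternative run, the balance ratio stayed below 1 for aged over young and above 1 for aged+AA over aged in all 4 classes, from 0.476 to 0.579 and 1.46 to 1.66 over 14 alternatives in T cells and 0.550 to 0.727 and 1.26 to 1.44 over 11 in B cells. The direction turned in the nuclear share of T cells in both comparisons and of B cells, aged over young, when mitochondrial and ribosomal protein genes left the total, in that of B cells, aged+AA over aged, with stricter gates and with little globin, and in the mitochondrial share of myeloid cells, aged+AA over aged, as a thinned median. The cause was not tested. Without the mitochondrial limit, the mitochondrial share ratio was 0.572 (T) and 0.575 (B) for aged over young and 1.51 (T) and 1.43 (B) for aged+AA over aged and the balance ratio was 1.65 (T) for aged+AA over aged and 0.552 (B) for aged over young. With a limit of 5%, the mitochondrial share ratio was 0.677 (T) and 0.819 (B) for aged over young and 1.34 (T) and 1.26 (B) for aged+AA over aged, the nuclear share ratio was 1.17 (T) and 1.13 (B) for aged over young and the balance ratio was 0.579 (T) and 0.727 (B) for aged over young and 1.46 (T) and 1.26 (B) for aged+AA over aged. With free RNA subtracted, the mitochondrial share ratio was 1.48 (T) and 1.41 (B) for aged+AA over aged and 0.588 (B) for aged over young, the nuclear share ratio was 1.18 (T) for aged over young and the balance ratio was 1.402 (B) for aged+AA over aged. With gates of 3 marker UMIs, or 20 for myeloid cells, the mitochondrial share ratio was 0.579 (B) for aged over young and 1.43 (B) for aged+AA over aged, the nuclear share ratio was 1.05 (B) for aged over young and 0.992 (B) for aged+AA over aged and the balance ratio was 0.550 (B) for aged over young and 1.44 (B) for aged+AA over aged. In CD8 T cells, the mitochondrial share ratio was 0.583 (T) for aged over young, the nuclear share ratio was 1.199 (T) for aged over young and 0.900 (T) for aged+AA over aged and the balance ratio was 1.65 (T) for aged+AA over aged. Among CD4 T cells, the mitochondrial share ratio was 0.557 (T) for aged over young and 1.42 (T) for aged+AA over aged, the nuclear share ratio was 1.17 (T) for aged over young and 0.933 (T) for aged+AA over aged and the balance ratio was 0.476 (T) for aged over young and 1.52 (T) for aged+AA over aged. In T cells without memory genes, the mitochondrial share ratio was 0.542 (T) for aged over young and 1.44 (T) for aged+AA over aged, the nuclear share ratio was 1.08 (T) for aged over young and 0.974 (T) for aged+AA over aged and the balance ratio was 0.504 (T) for aged over young and 1.47 (T) for aged+AA over aged. As medians over cells thinned to 1000 UMIs, the mitochondrial share ratio was 0.580 (T) and 0.614 (B) for aged over young and 1.41 (T) and 1.34 (B) and 0.821 (myeloid) for aged+AA over aged, the nuclear share ratio was 1.12 (T) and 1.07 (B) for aged over young and 0.889 (T) and 1.00 (B) for aged+AA over aged and the balance ratio was 0.555 (B) for aged over young and 1.44 (B) for aged+AA over aged. In cells with at most 2% globin UMIs, chosen after seeing the data, the mitochondrial share ratio was 0.598 (T) and 0.627 (B) for aged over young and 1.42 (T) and 1.31 (B) for aged+AA over aged and the nuclear share ratio was 1.24 (T) and 1.12 (B) for aged over young and 0.870 (T) and 0.925 (B) for aged+AA over aged. With mitochondrial and ribosomal protein genes out of the total, the nuclear share ratio was 0.984 (T) and 0.941 (B) for aged over young and 1.03 (T) and 1.08 (B) for aged+AA over aged. Without mt-Atp6, the balance ratio was 0.512 (T) and 0.587 (B) for aged over young and 1.51 (T) and 1.31 (B) for aged+AA over aged. Without mt-Nd4l, mt-Atp8 and mt-Nd6, the balance ratio was 1.66 (T) and 1.44 (B) for aged+AA over aged. At a fold below the one used, the counts that moved were 2 nuclear higher and 18 nuclear lower in T cells, aged over young, 8 nuclear higher and 2 nuclear lower in T cells, aged+AA over aged, 14 nuclear lower in B cells, aged over young, 7 mitochondrial higher and 2 mitochondrial lower and 6 nuclear higher and 1 nuclear lower in B cells, aged+AA over aged. At 2-fold, the counts that moved were 8 mitochondrial lower and 1 nuclear lower in T cells, aged over young, 2 mitochondrial higher and 0 mitochondrial lower in T cells, aged+AA over aged, 5 mitochondrial lower and 0 nuclear lower in B cells, aged over young, 0 mitochondrial higher and 0 mitochondrial lower in B cells, aged+AA over aged. Without centring on the median gene, the counts that moved were 8 mitochondrial lower and 5 nuclear higher and 1 nuclear lower in T cells, aged over young, 1 nuclear lower in T cells, aged+AA over aged. With these genes out of CPM and no centring, the counts that moved were 0 mitochondrial lower in T cells, aged+AA over aged. With a minimum of 20 UMIs, the counts that moved were 1 nuclear higher in T cells, aged+AA over aged, 1 nuclear lower in B cells, aged+AA over aged. With the limit of 5%, the counts that moved were 6 mitochondrial lower and 4 nuclear lower in B cells, aged over young, 2 mitochondrial higher in B cells, aged+AA over aged. The share of all genes past the fold was taken for the main setting alone, so the counts at other folds and settings cannot be read against it. No paired analysis was possible because each group has 1 library. Keeping predicted doublets, a minimum of 1000 UMIs and 500 genes, a minimum of 500 UMIs per gene and subunits alone moved none of the shares, balances and counts in T and B cells beyond counting error or 1.5 times. With the NRF1 letters TGCGCATG, 9 of 81 members (11.1%) and 2.42% of all genes matched.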

Other observations

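Within the myeloid gate, monocytes (Csf1r) and neutrophils (Csf3r, S100a8, S100a9) differed more in their nuclear members than the lymphocyte classes did. Monocytes of the young, aged and aged+AA library (54, 1103 and 119 cells) held 1.67%, 2.35% and 1.80% of UMIs in nuclear members and neutrophils (14, 762 and 168 cells) 0.922%, 0.870% and 0.876%. Their balances were 1.79, 0.830 and 1.42 in monocytes and 1.97, 0.762 and 1.252 in neutrophils. The young neutrophil values rest on 14 cells. Neutrophils carry few mitochondria by textbook knowledge, and density separation of blood is meant to remove them.

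Cells that met no gate (196, 317 and 266 cells) had a balance of 2.96, 1.70 and 3.77, with the aged+AA library highest. Without the mitochondrial limit (391, 376 and 442 cells) it was 8.77, 2.54 and 8.16, with the young library highest, as in the gated classes. The order thus turned with the limit. At the limit of 10%, cytosolic ribosomal protein genes took 4.09%, 9.40% and 12.4% of the UMIs of these cells, so the libraries differed in their makeup. Cells that met 2 gates (76, 88 and 168 cells) had a balance of 3.57, 1.21 and 2.47.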
